A study of Mus musculus with 384 samples.

Results

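The 10 genes described here encode the neurofilament subunits *Nefl*, *Nefm*, *Nefh*, *Ina* and *Prph*, the growth cone and microtubule proteins *Gap43*, *Stmn2* and *Map1b*, and the tubulins *Tuba4a* and *Tubb3*. They were taken by their symbols, and all 10 were found among the 55331 genes in the files. Their transcripts were measured in full-length cDNA of single cells (Smart-seq2), from intrinsically photosensitive retinal ganglion cells (ipRGCs), which are the ganglion cells that make the photopigment melanopsin. The labels list 384 cells from retinas, as many at P1 as at P5, which are days 1 and 5 after birth. Every cell of both ages had the genotype Opn4Cre/+; Brn3bzDta/+; Rosa26fsTRAP/+. *Opn4* is the melanopsin gene, whose Cre switches on a GFP-tagged ribosomal protein from the Rosa26 locus. Brn3b is the older name of *Pou4f2*, a ganglion cell transcription factor, and the zDta allele carries a diphtheria toxin A sequence at that locus. All cells thus carried 1 targeted copy of *Opn4* and 1 of *Pou4f2*, and there were no cells without these alleles for comparison. The sort took cells with GFP and with surface CD90, which *Thy1* encodes. The labels tie no cell to an animal. Each age is therefore treated as 1 sample, no p-values were computed, and the intervals below cover counting error only.

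Neurofilaments are the intermediate filaments of axons. They are built from a light (*Nefl*), a medium (*Nefm*) and a heavy (*Nefh*) subunit together with alpha-internexin (*Ina*), which is made early in neurons, or peripherin (*Prph*), which is best known from peripheral neurons, and they set axon caliber as axons mature. *Gap43* encodes a membrane-associated protein of growth cones, *Stmn2* a stathmin that regulates microtubule dynamics, and *Map1b* a microtubule-associated protein abundant in growing axons. *Tubb3* encodes the neuronal class III beta-tubulin, and *Tuba4a* an alpha-tubulin.

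Promoter sequence is shown for *Tuba4a*, the member that differed most between the ages, and for *Ina* and *Prph*, 2 filament genes at opposite ends of detection. The sequences are from RefSeq on GRCm38.p6, run 5′ to 3′ on the gene's strand up to the base before its RefSeq start, and leave out bases within annotated exons. Capitals mark TATAA. The *Tuba4a* stretch is chr1:75219295-75219425 on the minus strand, that of *Ina* chr19:47014431-47014680 on the plus strand, and that of *Prph* chr15:99054924-99055173 on the plus strand.
Tuba4a: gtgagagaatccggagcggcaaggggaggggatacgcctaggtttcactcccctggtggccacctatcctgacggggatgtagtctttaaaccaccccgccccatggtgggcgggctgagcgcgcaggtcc
Ina: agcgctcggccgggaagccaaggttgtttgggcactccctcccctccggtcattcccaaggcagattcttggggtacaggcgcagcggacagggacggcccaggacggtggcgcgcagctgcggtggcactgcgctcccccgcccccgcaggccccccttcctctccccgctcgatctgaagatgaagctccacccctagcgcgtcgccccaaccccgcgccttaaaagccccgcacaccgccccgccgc
Prph: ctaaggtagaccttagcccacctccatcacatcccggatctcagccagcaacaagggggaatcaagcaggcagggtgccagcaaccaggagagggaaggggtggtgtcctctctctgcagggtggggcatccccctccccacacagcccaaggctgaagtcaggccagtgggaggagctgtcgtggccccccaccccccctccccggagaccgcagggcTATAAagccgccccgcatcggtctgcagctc

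RefSeq promoters were matched for 5 of the 10 genes, the others being *Map1b* and *Tubb3*. In the 250 bases before the start, TATAA was found, with both strands searched, in *Prph*, *Tubb3* and *Map1b* and not in *Ina* or *Tuba4a*. Its first base lay 31 bases before the start in *Prph* and 30 bases before it in *Tubb3*. GGGCGG was found in all 5. Of 32851 windows of the same kind, 22.78% held TATAA and 32.74% held GGGCGG. These matches are a description of the letters in the windows.

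Only cells in which 1000 or more genes were detected were kept, 372 in all and 190 of them from P1. They held medians of 930228 and 858452 fragments on genes, and 5081 and 6600 detected genes, at P1 and P5. The ganglion cell markers *Rbpms* and *Thy1* were detected in 92.1% and 46.3% of cells at P1 and in 96.7% and 57.1% at P5, and *Opn4* in 70% and 67.6%. Of 51 marker genes of other retinal and vascular cell classes, the median gene was detected in 0.526% of P1 and 0.549% of P5 cells, 23 and 15 genes were at 0, and the glial enzyme *Glul* was highest at 33.7% and 59.3%. The hemoglobin gene *Hbb-bs* was detected in 47.9% of P1 and 1.65% of P5 cells. *Xist* without Y-linked transcripts was found in 150 P1 cells and in no P5 cell, and Y-linked transcripts without *Xist* in 26 P1 and 160 P5 cells, so age cannot be told apart from sex except in the latter cells. The labels give no plate or batch. Within each age the cells were also read as 4 runs of 48 consecutive cell numbers. What a run stands for is not given in the labels, and runs serve here as a measure of spread within an age.

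Levels are given as TPM, each cell's FPKM divided by its summed FPKM and multiplied by 1000000, a scale that allows genes to be compared per length. The deposited FPKM values sum to a mean of 821015 per P1 cell and 541193 per P5 cell. The median log2 fold of all genes tested from P1 to P5 was −0.51 on mean FPKM, 0.01 on mean TPM and −0.01 on summed fragments per 1000000 (CPM), and folds on FPKM are read below against the first of these values.

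All members but *Prph* were detected in over 17% of the ipRGCs at both ages, at mean levels from 8.09 to 3777 TPM. At P1 the order of mean TPM was *Gap43* (3525 ± 1390, SD over 190 cells), *Map1b* (3477 ± 1313), *Stmn2* (1989 ± 948), *Tubb3* (705 ± 519), *Ina* (548 ± 292), *Nefl* (457 ± 373), *Nefm* (83.9 ± 113.5), *Nefh* (10.9 ± 30.8), *Tuba4a* (8.09 ± 34.9) and *Prph* (1.43 ± 19.7). At P5 it was *Map1b* (3777 ± 1237, SD over cells), *Gap43* (3019 ± 986), *Stmn2* (1789 ± 843), *Tubb3* (699 ± 543), *Nefl* (497 ± 346), *Ina* (435 ± 201), *Nefm* (92.5 ± 104.6), *Tuba4a* (34.6 ± 68.04), *Nefh* (15.1 ± 27.6) and *Prph* (0.967 ± 10.7). *Gap43* and *Map1b* were neighbors whose run means overlapped at both ages. *Nefl* and *Ina* changed places by the mean. Run means of *Ina* were 506 to 606 TPM and of *Nefl* 428 to 484 TPM at P1. At P5 they were 411 to 455 TPM and 474 to 525 TPM, with no overlap at either age. By the median over cells *Ina* stayed above *Nefl*, at 519 against 353 TPM at P1 and 417 against 394 TPM at P5. *Nefh* and *Tuba4a* also changed places, with run means that overlapped at P1 (7.45 to 15.2 TPM against 1.64 to 14.2 TPM) and did not at P5 (11.8 to 24.02 TPM against 25.9 to 41.7 TPM).

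**Figure D1:**
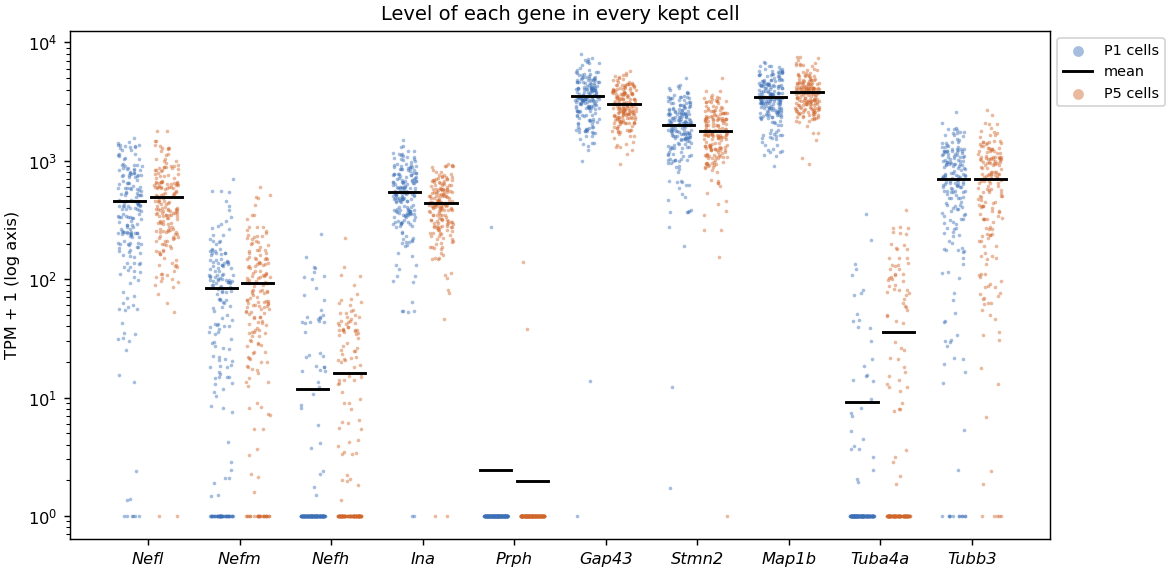
Level of each gene in every kept cell, as TPM + 1 on a log axis, with P1 cells in blue, P5 cells in orange and a black line at the mean over cells. Gap43, Map1b and Stmn2 sit highest at both ages, Prph is at 0 in all but 3 cells, and the Tuba4a mean goes from 8.09 to 34.6 TPM.

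The growth cone genes were among the most abundant transcripts of these cells at both ages. *Map1b* took a median of 1.01% of a cell's fragments at P1 and 1.04% at P5. It was among the 10 genes with the most fragments in all but 4 P1 cells and 1 P5 cell, and ranked first in 9 P1 cells. In mean TPM, *Gap43*, *Map1b* and *Stmn2* ranked 14th, 15th and 25th of 14915 genes at P1 and 18th, 13th and 32nd at P5. *Map1b* was detected in all 372 cells and was never below 896 TPM at P1 or 942 TPM at P5. *Gap43* was missing from 1 P1 cell and *Stmn2* from 1 P5 cell.

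From P1 to P5 the growth cone genes differed by less than 2-fold on each of the 3 scales. *Gap43* differed by −0.87 (log2, mean FPKM), −0.22 (TPM) and −0.24 (CPM). *Stmn2* differed by −0.82, −0.15 and −0.18 on the same scales. For both genes the run means of TPM overlapped between the ages, from 3163 to 3867 against 2637 to 3387 for *Gap43*, and from 1759 to 2278 against 1611 to 1968 for *Stmn2*. *Map1b* was lower on mean FPKM (−0.51, the same as the median of all genes) and slightly higher on TPM (0.12) and CPM (0.07), and its run means overlapped, from 3343 to 3609 TPM at P1 and from 3259 to 4045 TPM at P5.

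Of the 9 members that passed the level filter, a mean FPKM of at least 1, 1 (*Tuba4a*) was at least 2-fold higher at P5 on mean FPKM, against 2.21% of all 14915 genes, and 0 were at least 2-fold lower, against 16.1%. On mean TPM the same counts stood beside 4.51% and 4.99% of all genes, on CPM beside 3.48% and 4.23%, and after the median fold was taken off mean FPKM beside 5.38% and 4.72%. The median log2 fold of the 9 was −0.57 on FPKM and 0.12 on TPM, beside −0.51 and 0.01 over all genes. *Prph* was below the filter.

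**Figure D2:**
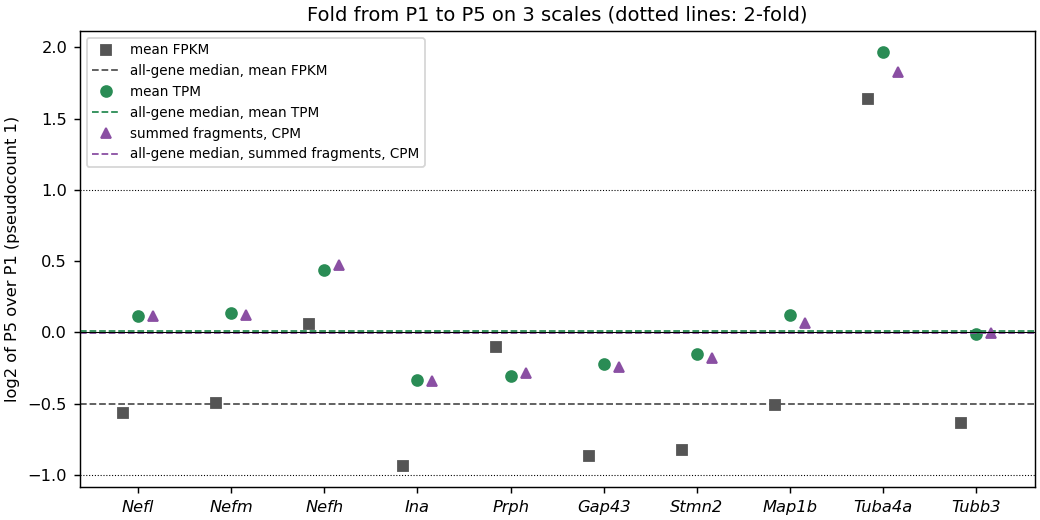
Log2 fold from P1 to P5 of each gene on mean FPKM (squares), mean TPM (circles) and summed fragments as CPM (triangles), each with a pseudocount of 1; dashed lines give the median of all 14915 genes on the same scale and dotted lines mark 2-fold. Tuba4a lies above the 2-fold line on each scale (1.64, 1.97 and 1.82), and no other gene passes it.

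*Tuba4a* had the largest difference of the 10 genes. Its mean level was 8.09 TPM at P1 and 34.6 TPM at P5, a log2 fold of 1.97, and 5.002 and 17.7 in FPKM, a log2 fold of 1.64. Summed over cells it held 9.37 CPM (exact Poisson 95% interval 8.92 to 9.83) at P1 and 35.7 CPM (34.8 to 36.7) at P5. The runs held 14.2, 16.4, 1.87 and 5.09 CPM at P1 and 31.3, 26.05, 44.5 and 41.1 CPM at P5. All lay outside these intervals, which cover counting error and not the spread between runs. Mean TPM was 12, 14.2, 1.64 and 4.75 in the 4 P1 runs and 29.2, 25.9, 40.7 and 41.7 in the 4 P5 runs, so every P5 run was above every P1 run, as in 4.32% of all genes. Both detection and level differed: the gene was found in 33 of 190 P1 cells (17.4%, exact 95% interval 12.3 to 23.5%) and 68 P5 cells (37.4%, 30.3 to 44.8%), and the median over cells that had it was 14.4 TPM at P1 and 78.8 TPM at P5. Its rank by mean TPM went from 9725 to 4746. In cells with Y-linked transcripts and no *Xist*, mean TPM was 6.26 over 26 P1 cells and 36.2 over 160 P5 cells. Of these cells, 3 had the gene at P1 (11.5%, 2.45 to 30.2%), the highest at 132.8 TPM, and 62 at P5 (38.8%, 31.2 to 46.8%).

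The exons of *Tuba4a* (chr1:75214228-75219865, minus strand, GRCm38) overlap those of *Stk16*, a kinase gene on the opposite strand, over 1379 of 3701 bases, and Smart-seq2 does not mark strand. Fragments within the shared bases cannot be told apart. The split by *Stk16* given below depends on how such fragments were assigned between the genes. *Stk16* had a mean of 121.3 TPM at P1 and 95.8 TPM at P5 and detection of 46.3% and 54.9%. Among cells with no *Stk16* fragment, *Tuba4a* was detected in 15 at P1 (14.7%, 8.47 to 23.1%) and in 34 of 82 at P5 (41.5%, 30.7 to 52.9%). Among cells with *Stk16*, it was detected in 18 of 88 (20.5%, 12.6 to 30.4%) and 34 of 100 (34%, 24.8 to 44.2%).

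The other tubulin of the group, *Tubb3*, had run means that overlapped between the ages. It was detected in 94.2% of P1 and 97.3% of P5 cells, with a mean of 705 and 699 TPM and run means of 550 to 844 TPM and 619 to 752 TPM. Its log2 fold was −0.63 on FPKM, −0.01 on TPM and −0.01 on CPM. Of 12 other tubulin genes, 9 passed the level filter. On TPM 1 was at least 2-fold higher (*Tuba1c*, 20.7 and 45.8 TPM, log2 fold 1.10), against 4.51% of all genes. On the same scale 0 were at least 2-fold lower, against 4.99%. On FPKM *Tuba1c* was at 0.51 and *Tubb5*, the gene with the lowest fold of the list, at −1.10 (−0.42 on TPM). *Tuba1a* was the most abundant at 3826 and 3910 TPM.

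The neurofilament subunits differed in the share of cells in which they were detected. *Nefl* was detected in 96.8% and 98.9% of P1 and P5 cells and *Ina* in 98.9% at both ages. *Nefm* was detected in 75.3% (68.5 to 81.2%) at P1 and 86.8% (81 to 91.4%) at P5. *Nefh* was detected in 45 of 190 P1 cells (23.7%, 17.8 to 30.4%) and 86 P5 cells (47.3%, 39.8 to 54.8%). The shares in the 4 runs were 34, 17, 18.8 and 25% at P1 and 53.3, 50, 44.4 and 41.7% at P5, with no overlap. The same held for *Tuba4a*, whose shares were 12.5 to 25.5% and 31.3 to 48.9%, and for no other member. In 18.1% of all 14915 genes every P5 run was above every P1 run in detection, and in 0.288% below it, so that 2 of 9 members is near the share of all genes. After each cell was thinned to 50000 fragments, *Nefh* was detected in 20% and 37.9% and *Tuba4a* in 10.5% and 31.3%. At that depth the median number of detected genes still differed, at 3959.5 in P1 and 5145 in P5 cells.

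**Figure D3:**
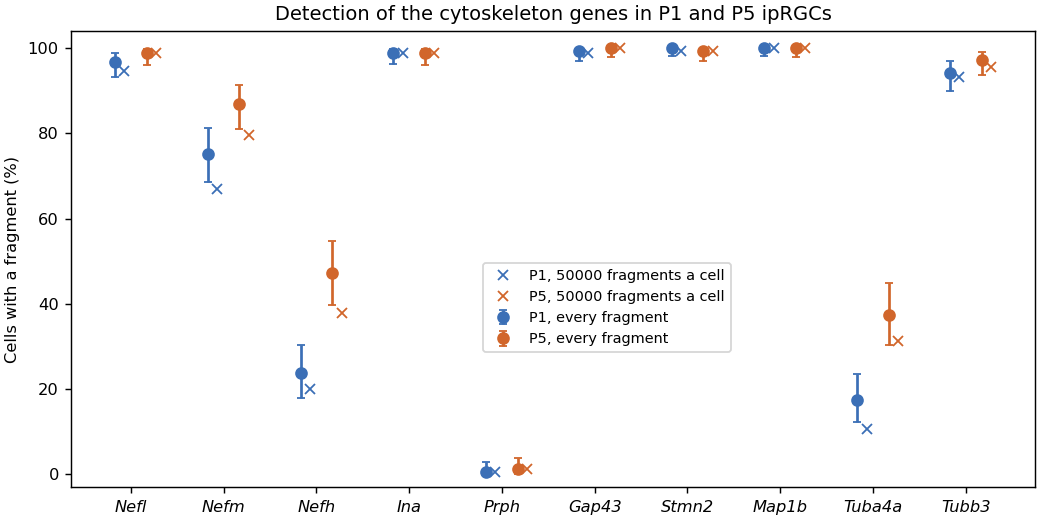
Percent of kept cells with at least 1 fragment of each gene, P1 in blue and P5 in orange, with exact 95% binomial intervals; crosses give the share after thinning each cell to 50000 fragments. Nefh (23.7% and 47.3%) and Tuba4a (17.4% and 37.4%) have intervals that do not overlap between the ages.

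The level of *Nefh* differed by less than 2-fold. Its mean was 10.9 TPM at P1 and 15.1 TPM at P5, with log2 folds of 0.06 on FPKM, 0.44 on TPM and 0.47 on CPM and run means that overlapped. In cells with Y-linked transcripts and no *Xist* the direction turned on FPKM (−0.78) and TPM (−0.11), while detection was 15.4% (4.36 to 34.9%) of 26 P1 cells and 50.6% (42.6 to 58.6%) of 160 P5 cells. In the cells that had it, the median was 34.8 TPM at P1 and 24.7 TPM at P5. *Nefm* had means of 83.9 and 92.5 TPM and *Nefl* of 457 and 497 TPM. Both were lower at P5 on FPKM (−0.49 and −0.57) and slightly higher on TPM (0.14 and 0.12) and CPM (0.12 and 0.12), and their run means overlapped. *Nefl* and *Nefm* lie beside each other on chromosome 14 on opposite strands and share 1108 exon bases, so their fragments there cannot be told apart.

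Of the 4 filament genes past the level filter, *Ina* was the 1 with a lower level at P5 on every scale. Its mean was 548 and 435 TPM, with log2 folds of −0.94 on FPKM, −0.33 on TPM and −0.34 on CPM. The run means were 513, 606, 568 and 506 TPM at P1 and 423, 455, 411 and 448 TPM at P5, so every P5 run was below every P1 run, as in 3.05% of all genes. In cells with Y-linked transcripts and no *Xist*, means were 591 and 433 TPM. *Ina* shares 456 of 3240 exon bases with *Nt5c2*, a nucleotidase gene on the opposite strand, whose mean was 59.3 and 42.04 TPM.

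*Prph* was close to absent. It was found in 1 P1 cell, with 245 fragments, and in 2 P5 cells, the lower of them with 34 fragments. All 3 were without *Pou4f2*, and the P5 cell with 34 fragments was also without *Opn4*. *Pou4f2* was detected in 44.2% of P1 and 56.6% of P5 cells. The 3 cells are thus too few to link *Prph* to cells without *Pou4f2*. The shares of cells with *Prph*, 0.526% (0.0133 to 2.90%) and 1.10% (0.133 to 3.91%), had intervals that overlapped.

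Co-detection followed the shares of single genes. *Nefl*, *Nefm*, *Nefh* and *Ina* were all found in 33 P1 cells (17.4%, 12.3 to 23.5%) and 75 P5 cells (41.2%, 34 to 48.7%). *Nefl* and *Ina* without the other 2 were found in 33 P1 cells (17.4%) and 12 P5 cells (6.59%, 3.45 to 11.2%). Cells with neither *Nefh* nor *Tuba4a* made up 64.7% (57.5 to 71.5%) at P1 and 31.3% (24.7 to 38.6%) at P5. Detection of *Nefh* and *Tuba4a* in the same cell had no shared direction at the 2 ages, and the intervals overlapped. *Tuba4a* was detected in 24.4% (12.9 to 39.5%) of P1 cells with *Nefh* and 15.2% (9.76 to 22.1%) without it, and in 33.7% (23.9 to 44.7%) and 40.6% (30.7 to 51.1%) at P5. *Gap43*, *Stmn2*, *Map1b* and *Tubb3* were found together in 93.7% and 97.3%.

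The summed neurofilament level stood at about the same distance below the summed growth cone level at both ages. The 5 filament genes summed to a median of 1005 TPM at P1 and 937 TPM at P5, and *Gap43*, *Stmn2* and *Map1b* to 8896 and 8551 TPM. Per cell the filament sum was a median of 11.6% and 11.5% of the growth cone sum, and it was above that sum in 0 cells at either age. The median log2 ratio on FPKM was −3.11 (quartiles −3.57 and −2.69) at P1 and −3.11 (−3.58 and −2.73) at P5, and the medians of the 4 runs lay between −3.23 and −2.83 and between −3.18 and −3.07. The lowest ratio was −11.90 in a P1 cell and −6.29 in a P5 cell. With *Tuba4a* in the sum of filament levels the medians were −3.11 and −3.08. The makeup of the filament sum differed: *Nefl* gave 41.5% of it at P1 and 47.8% at P5, *Ina* 49.7% and 41.8%, *Nefm* 7.62% and 8.89%, and *Nefh* 0.988% and 1.45%. *Nefl* was above *Ina* in 70 of 190 P1 cells and 92 P5 cells.

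**Figure D4:**
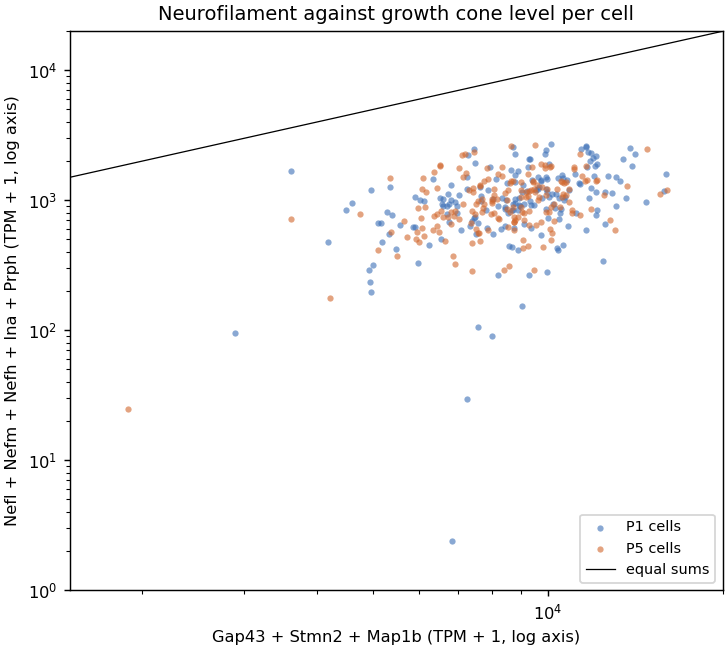
Summed neurofilament TPM against summed growth cone TPM in each cell, both plus 1 on log axes, with P1 cells in blue, P5 cells in orange and a line where the sums are equal. All 372 cells lie below the line, at medians of 11.6% and 11.5% of the growth cone sum at P1 and P5.

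Across cells of an age, the members fell into pairs that varied together and pairs that did not, as described by Spearman's rho on CPM. All points share the library's depth and composition. *Stmn2* and *Tubb3* had the highest rho (0.51 at P1 and 0.67 at P5), followed by *Gap43* with *Stmn2* (0.38 and 0.50) and with *Tubb3* (0.37 and 0.48). *Nefl* and *Nefm*, which share exon bases, had 0.20 and 0.42. *Map1b* and *Tubb3* had 0.05 and −0.04, and *Nefh* had −0.06 and −0.21 with *Stmn2*. The genes outside the group most like *Gap43*, among 4588 detected in 50% of the cells or more and by mean rho over both ages, included *Calm2* (0.60), *Actb* (0.49) and *Gm7308* (0.48). Those most like *Nefl* were *Actb* (0.41), *Tubb5* (0.40), *Calm2* (0.39), *Actg1* (0.37) and *Rgs4* (0.36). For *Tuba4a* the 5 highest, *Selenow*, *Sdccag8*, *Stmn1*, *Ppia* and *Gm10123*, reached only 0.23 to 0.21. The order of the member pairs depended on the scale. On FPKM *Gap43* with *Map1b* was highest at P1 (0.53) and *Nefl* with *Nefm* at P5 (0.49). There *Stmn2* with *Tubb3* had 0.48 and 0.47, *Gap43* with *Tubb3* 0.36 and 0.21, and *Map1b* with *Tubb3* 0.07 and −0.24.

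Cells were then split by detection of *Opn4* and *Pou4f2*. Every cell carried the zDta allele, with its toxin sequence, at the *Pou4f2* locus. The effect of that allele on cells with *Pou4f2* was not tested. In the comparisons below, a difference tied to *Pou4f2* therefore cannot be told apart from an effect of that allele. Cells with *Opn4* and without *Pou4f2* numbered 76 at P1 and 65 at P5, those with both 57 and 58, those with *Pou4f2* and without *Opn4* 27 and 45, and those with neither 30 and 14. Median fragments ranged from 852132 to 1003296 over the 4 classes at P1 and from 817786 to 883231 at P5. Cells with *Opn4* and without *Pou4f2* were compared with all cells with *Pou4f2*, and the 2 classes had medians of 5004 and 5437 detected genes at P1 and 6261 and 6737 at P5.

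*Nefm* was lower in cells with *Opn4* and without *Pou4f2* at both ages. Its mean was 52.8 against 99.3 TPM at P1 (log2 fold −0.90) and 64.2 against 110 TPM at P5 (−0.77). On FPKM the folds were −0.97 and −1.17, beside medians of −0.07 and −0.35 over all genes. The class was lower in 4 of 4 runs at both ages, as in 7.65% of all genes at P1 and 14.8% at P5, with folds of −1.07 to −0.75 and of −1.47 to −0.07. Over the 4 classes the mean was highest in cells with *Pou4f2* and without *Opn4*, at 130.6 TPM at P1 and 151.2 TPM at P5.

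*Tubb3* was higher in cells with *Opn4* and without *Pou4f2*. Its mean was 881 against 639 TPM at P1 (0.46) and 1011 against 548 TPM at P5 (0.88), and it was higher in 4 of 4 runs at both ages, as in 5.65% and 6.56% of all genes. At P5 the means over cells with *Opn4* alone, with both, with *Pou4f2* alone and with neither were 1011, 734, 307 and 359 TPM. *Stmn2* lay in the same direction, with log2 folds of 0.20 and 0.42 on TPM, in 3 of 4 runs at P1 and 4 of 4 at P5. At P5 its means over the same classes were 2162, 1942, 1186 and 1365 TPM. *Gap43* had P5 means of 3286, 3188, 2464 and 2856 TPM, and P1 means of 3715, 3258, 3795 and 3310 TPM.

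**Figure D5:**
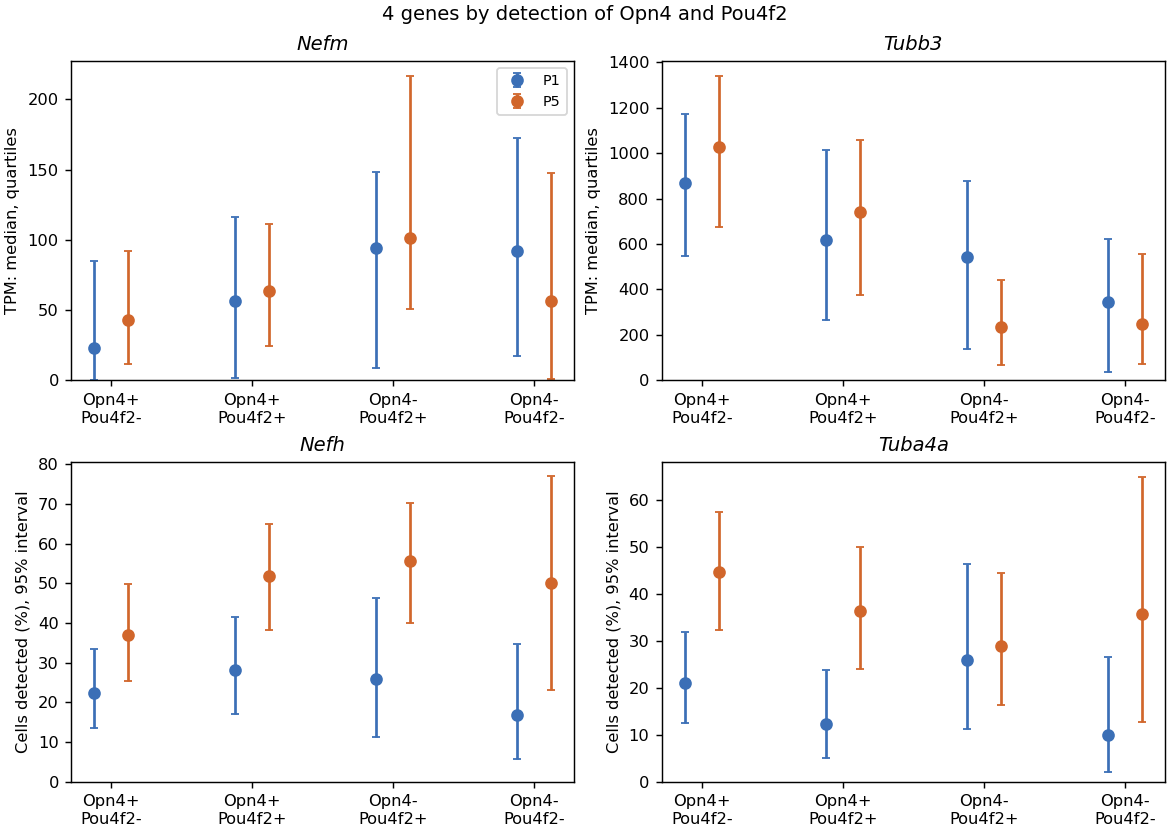
Nefm and Tubb3 as the median and quartiles of TPM over cells, and Nefh and Tuba4a as the percent of cells detected with exact 95% intervals, in 4 classes of cells by detection of Opn4 and Pou4f2, with P1 in blue and P5 in orange. Tubb3 has its highest median in cells with Opn4 and without Pou4f2 and Nefm its lowest, at both ages.

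*Tuba4a* was higher in cells with *Opn4* and without *Pou4f2*, at 14.04 against 4.50 TPM at P1 (log2 fold 1.45) and 48.6 against 27.5 TPM at P5 (0.80), but the runs did not share a direction, being higher in 2 of 4 at P1 and 3 of 4 at P5. On FPKM its P1 fold of 1.03 made it the 1 of 9 members at least 2-fold higher in that contrast, against 9.48% of all genes, and no member was 2-fold lower, against 12.4%. At P5 *Nefm* was the 1 of 9 at least 2-fold lower on FPKM, against 13.2%, and none was higher, against 2.65%. The median log2 fold of all genes in that P5 contrast was −0.35 on FPKM and −0.10 on TPM. On TPM *Tuba4a* was the 1 of 9 higher at P1, against 8.43%, none was lower, against 10.9%, and at P5 no member passed 2-fold, against 5.26% higher and 10.6% lower. *Tuba4a* detection was higher at P5 in cells with *Opn4* and without *Pou4f2* (44.6%, 32.3 to 57.5%, against 21.1%, 12.5 to 31.9%) and in cells with both (36.2%, 24 to 49.9%, against 12.3%, 5.08 to 23.7%), while in cells with *Pou4f2* alone it was 28.9% (16.4 to 44.3%) against 25.9% (11.1 to 46.3%). *Nefl* had folds of −0.25 at P1 and 0.44 at P5 on TPM, and *Nefh*, *Ina*, *Gap43* and *Map1b* were within 0.23 of 0 on TPM at both ages. For *Nefh* the runs went both ways, 2 higher and 2 lower at each age. Its run folds lay between −1.33 and 1.23 at P1 and between −1.77 and 1.30 at P5. *Map1b* was lower in 4 of 4 runs at each age (−0.19 at P1 and −0.11 at P5), as in 7.65% and 14.8% of all genes. Its run folds at P1 went from −0.42 to −0.0014. The ratio of filament to growth cone level had medians of −3.16 and −3.06 in cells with *Opn4* and without *Pou4f2* and of −3.04 and −3.17 in cells with *Pou4f2*.

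The other genes of the axonal cytoskeleton were nearly all within 2-fold on TPM, as were most of all 14915 genes. Over all genes, 4.51% were at least 2-fold higher and 4.99% lower on TPM. The shares were 2.21% and 16.1% on FPKM, and 3.48% and 4.23% on CPM. None of 20 other growth cone genes passed 2-fold on TPM in either direction, and 4 were at least 2-fold lower on FPKM. The lowest was *Marcks*, a membrane-associated kinase substrate (289 and 197 TPM, −0.55 on TPM and −1.20 on FPKM), and the highest *Dpysl5*, a collapsin response mediator (93.6 and 110 TPM, 0.23 and −0.33). None of 13 other microtubule-associated proteins passed 2-fold on either scale, from *Map2* (336 and 261 TPM, −0.36 on TPM) to *Map1a* (7.74 and 13.2 TPM, 0.70 on TPM). The same held for 12 axonal transport motor genes, from *Kif5b*, a kinesin heavy chain (114.6 and 92.9 TPM, −0.30), to *Dync1i1*, a dynein intermediate chain (9.64 and 18.8 TPM, 0.90), except that *Dync1i1* passed 2-fold on CPM (1.17). It held also for the 9 of 10 filament crosslinker and turnover genes that passed the filter, from *Cdk5r1*, an activator of the kinase Cdk5 (−0.29), to *Klhl1* (0.45). The median log2 folds of these 4 lists on TPM were −0.08, 0.04, 0.06 and −0.06, beside 0.01 over all genes.

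Among 10 other intermediate filament genes, 6 passed the filter, and 1 was at least 2-fold lower on TPM, 2 on CPM and 3 on FPKM. Of all genes, 4.99% were that much lower on TPM, 4.23% on CPM and 16.1% on FPKM. The median log2 fold of all genes on FPKM was −0.51. *Vim*, the vimentin gene, was lower on each scale, at 131.5 and 49.3 TPM (−1.40 on TPM, −1.45 on CPM and −1.99 on FPKM), detected in 55.3% and 42.3% of cells. *Synm*, which encodes synemin, was at 200.9 and 103.1 TPM (−0.96 on TPM, −1.01 on CPM and −1.60 on FPKM). *Lmna*, a lamin gene, was at −1.11 on FPKM and −0.49 on TPM, and *Lmnb1*, another lamin gene, had the highest TPM fold of the list (−0.07). *Gfap* and *Nes*, markers of glia and progenitors, were detected in 0% of cells at both ages and in 2.11% and 1.10%. Of the 3 other stathmin genes, *Stmn3* was at 1221 and 1691 TPM (0.47) and *Stmn1* at 2888 and 2175 TPM (−0.41 on TPM and −1.02 on FPKM).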

How the data were processed

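Single ipRGCs at P1 and P5 were profiled by Smart-seq2. According to the submitters' notes, the authors aligned reads to GRCm38.p6 with HISAT2 2.1.0 and normalized with Cuffnorm of Cufflinks 2.2.1. They deposited FPKM per gene and cell, a scaled fragment signal, the scale as a ratio, and the total fragment counts per library. The annotation used is not given in the sources used here. Multiplying the deposited signal by the deposited ratio gave back fragments: 95.7% of values of at least 0.5 came within 0.01 of a whole number. A gene was detected at 0.99 or more recovered fragments. The filter on cells (1000 or more detected genes) removed 2 cells at P1 and 10 at P5. Doublets were not called. Libraries have no molecular identifiers, so PCR copies count as fragments.

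Folds are log2 of the ratio of means, each plus a pseudocount of 1. They were computed for all 14915 gene symbols with a mean FPKM of at least 1. A gene is called at 2-fold or more. Intervals are exact at 95%, Clopper-Pearson for shares and Poisson for sums of fragments (scipy 1.17.1). No test was run. TPM, leaving out runs in the filament ratio, and the subsets of cells on TPM were added after the data were seen. Coordinates are from GENCODE M21, where 54583 of 55331 gene IDs matched by version. Transcripts were compared by BLAST 2.17.0. Stretches of 100 bases or more at 95% identity in another gene were found only for the pairs named with a shared exon. Fold calls on CPM were tested on simulated cells, and thinning and the coverage of the exact interval for shares were checked. Folds on mean FPKM or TPM, the classes of cells and the filament ratio were not simulated. The members and lists were chosen with earlier results of these data known. Named genes are the members, the highest and lowest fold of each list, the 5 genes most like *Nefl*, *Tuba4a* and *Gap43* (for *Gap43*, some are not reported here), label checks and overlapping genes. *Synm*, *Lmna*, *Gfap*, *Nes*, *Tuba1a* and *Glul* were named after their values were seen.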

Additional observations from a re-analysis of the deposited data

How the results depend on the processing

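No paired analysis was possible because the labels tie no cell to an animal and nothing was tested. *Tuba4a* was at least 2-fold higher at P5 under each of the 16 alternatives for its fold, from 1.12 (mean of log2 values over cells) to 2.36 (TPM in cells with Y-linked transcripts only). The latter rests on 3 P1 cells with the gene. No value called at 2-fold changed sign. Of 160 alternative values for the folds of the 10 members by age, 52 moved by more than the spread between runs, most of them with a change of scale. *Nefh* was at −0.78 on FPKM and −0.11 on TPM in cells with Y-linked transcripts only, at −0.20 on FPKM without run 2, and at −0.02 in cells with 3000 or more detected genes, against 0.06 in the main value. The number of genes at least 2-fold higher was 329, and became 512 with no filter on low values, 29 at a mean FPKM of at least 10, 500 with a pseudocount of 0.1, 519 on CPM, 672 on TPM and 803 after the median fold was taken off. The number lower was 2396, and became 985 at a mean FPKM of at least 10, 631 on CPM, 745 on TPM and 704 with the median taken off. The median log2 fold of all genes was −0.51, and 0 with no filter, −0.0079 on CPM, 0.012 on TPM and 0 by construction with the median taken off. The log2 ratio of filament to growth cone level, −3.11 at both ages, was −2.79 and −2.85 on CPM, −3.86 and −4.05 without *Nefl*, and −2.39 and −2.29 without *Map1b*. Its difference between the ages lay between −0.04 and 0.10 with each run left out in turn. Depth limits detection: thinning to 50000 fragments took *Nefm* from 75.3% to 66.8% of P1 cells and *Tuba4a* from 17.4% to 10.5%, and a transcript lost before sequencing cannot be told apart from one not made.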
